A study of Felis catus with 77 samples.

Results

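The 100 genes described here were low in skeletal muscle (SM) and at like levels in feline fibrosarcoma (FSA) tumor tissue (T), adipose tissue (AT) and connective tissue (CT). FSA is a malignant tumor of mesenchymal cells. The genes were chosen from the measured levels themselves. Counts were scaled by size factors, which correct for library depth, and the median normalized count was taken per tissue. Genes were kept if their T, AT and CT medians were all at least 50 and within 2-fold of one another. The 100 genes with the largest ratio of the smallest of these medians to the SM median, with 1 added to each, are the members. Of 19587 gene identifiers in the files, 19524 were counted in some library and 5894 passed the limits on T, AT and CT.

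RNAseq was performed on 77 libraries of tissue isolated by laser-capture microdissection (LCM) from fixed, embedded blocks of 30 cats with FSA. They comprised 30 T, 16 AT, 11 CT and 20 SM libraries, 1 per cat and tissue, and all normal tissue (NT) came from cats that carried a tumor. The labels give no treatment, breed or age for any library. The replicates of a tissue are therefore different cats, and libraries with the same case number share a cat.

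Skeletal muscle consists mainly of long, multinucleated fibers, and transcripts for contraction and energy metabolism make up much of the RNA of these cells. Between the fibers lie vessels, nerves, fibroblasts, immune cells and resident stem cells, which also occur in or around tumors, fat and connective tissue. A gene can thus be low in muscle because fibers make little of its RNA, or because the cells that make it are few, and bulk RNAseq cannot tell fewer cells of a type from less RNA per cell. The files do not pair identifiers with gene symbols, and none of the identifiers matched the RefSeq table at hand. The members are therefore described by their levels, the tissue labels were not checked against markers, and only 3 identifiers are named.

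Libraries had between 847003 and 19099337 counts. SM libraries of cats 7 and 11 held 1043709 and 1098607 counts, and 45 and 14 of the 100 members had no count there. In the SM library of cat 18, which held 9571552 counts, 36 members had no count. Together, the 50 genes most abundant in SM accounted for 37.9% to 65.5% of an SM library. They also took 34.1% of the AT library of cat 6 and 20.04% of the T library of cat 24, against at most 11.7% in any other AT library. The AT library of cat 5 carries a tumor label beside its adipose title and was taken as AT. Without it 92 of the 100 members were selected again, and without the AT library of cat 6 and the T library of cat 24 also 92.

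Tissue medians of the members, on the scale of normalized counts, ranged from 52.0 to 7842 in T, from 50.02 to 10244 in AT and from 51.0 to 9647 in CT. In SM they ranged from 6.80 to 1733. Over the members, the median was 167 for T, 146 for AT, 170 for CT and 28.2 for SM. These are the values that chose the members, so the low level in SM is a description of the choice and carries no test. Members differed by which of the other tissues was highest, with 43 highest in T, 18 in AT and 39 in CT. In 45 members the T, AT and CT medians lay within 1.5-fold of one another.

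**Figure D1:**
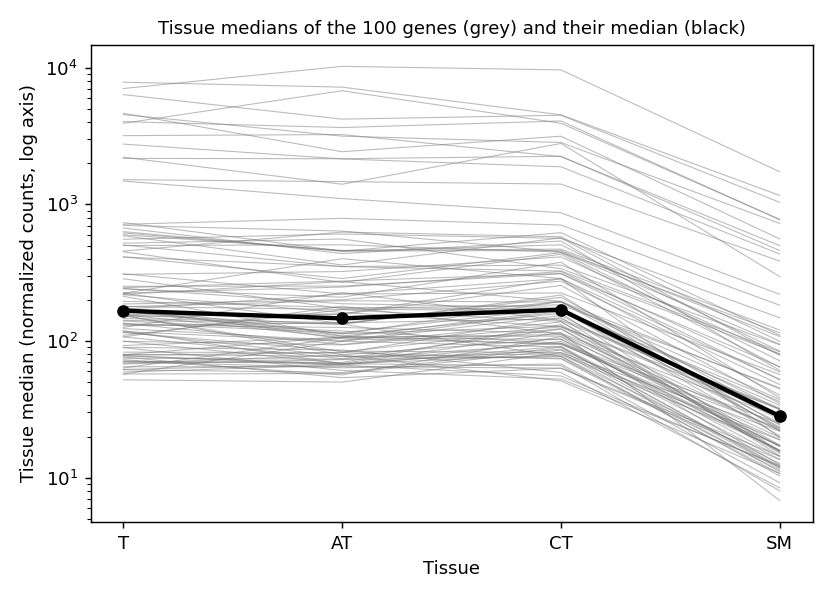
Median normalized count (log axis) of each of the 100 genes in T, AT, CT and SM (grey lines) and the median over the genes (black line and dots). The black line lies at 167, 146 and 170 in T, AT and CT and at 28.2 in SM, and the SM medians of single genes run from 6.80 to 1733.

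The ratio that ranked the members ran from 8.91 down to 3.65, with a median of 4.25, and it was over 5 in 20 of them. Over all 5894 genes past the limits the ratio had a median of 0.916, and 712 genes exceeded 2. The cut at 100 genes fell in a continuous series. The last members inside had ratios of 3.6503 and 3.64901, and the first genes outside had 3.64553 and 3.64526. Genes just past the cut were therefore as low in SM as the last members.

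Levels of the members fell into a wide series from rare to abundant transcripts. The smallest of the T, AT and CT medians was under 100 in 39 members, from 100 to under 1000 in 49 and 1000 or more in 12. The 12 abundant members still had SM medians of 296 to 1733 and were counted in every SM library. Of the 39 rarest members, 37 had no count in at least 1 SM library. Over all members, 146 of 2000 values in SM were 0, no member was at 0 in more than 10 of the 20 SM libraries, and 35 were counted in all of them. The abundant members show that low in SM did not mean absent.

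For each library, the median normalized count over the 100 members was taken as their level. It ranged from 129 to 252 in T, with a median of 173. In AT it ranged from 104 to 190 around 160, and in CT from 158 to 219 around 184. The SM libraries ranged from 7.43 in cat 18 to 100 in cat 30, with a median of 38.0, so that the highest SM library was 13.5-fold above the lowest. All SM libraries lay below all others, although the gap between the SM library of cat 30 (100.5) and the AT library of cat 6 (104) was small.

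**Figure D2:**
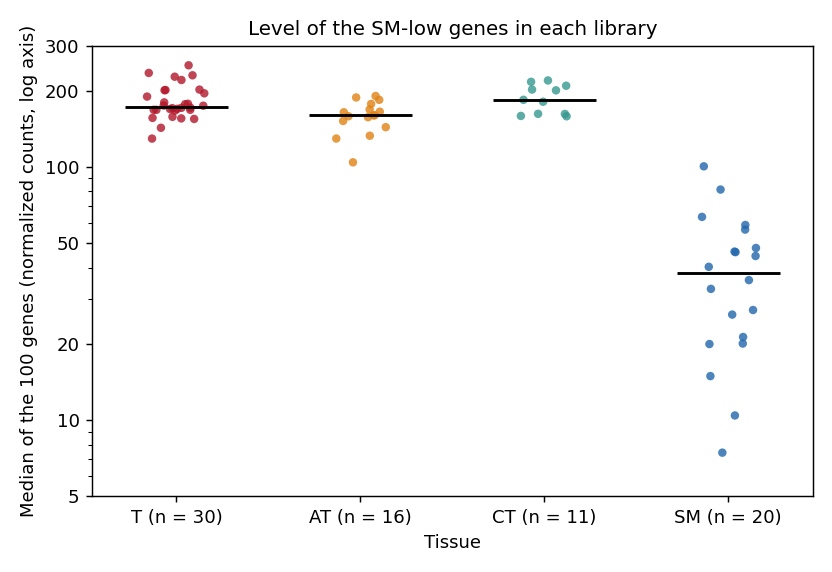
Median normalized count over the 100 genes (log axis) in every library, by tissue, with 1 dot per library and a bar at the tissue median. The T, AT and CT libraries lie between 104 and 252, and the SM libraries are spread from 7.43 to 100.

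As a share of all counts, the members made up 1.25% to 3.003% of a T library, 0.965% to 1.87% of an AT library and 1.05% to 1.78% of a CT library. In SM they made up 0.0460% to 0.504%. The members and the 50 genes most abundant in SM shared no gene. The SM library of cat 30 had both the largest share of members and the smallest share of these 50 genes among SM libraries (37.9%). The AT library of cat 6 had the smallest share of members among AT libraries (0.965%) together with 34.1% for these genes. Shares of one library sum to a whole, so the shares are not independent, and the part that a mixture of tissues may have in them was not tested. Outside the 50 genes, the members made up 0.109% to 0.811% of the remaining counts in SM and 1.46% in the AT library of cat 6, against a median of 1.68% in AT.

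**Figure D3:**
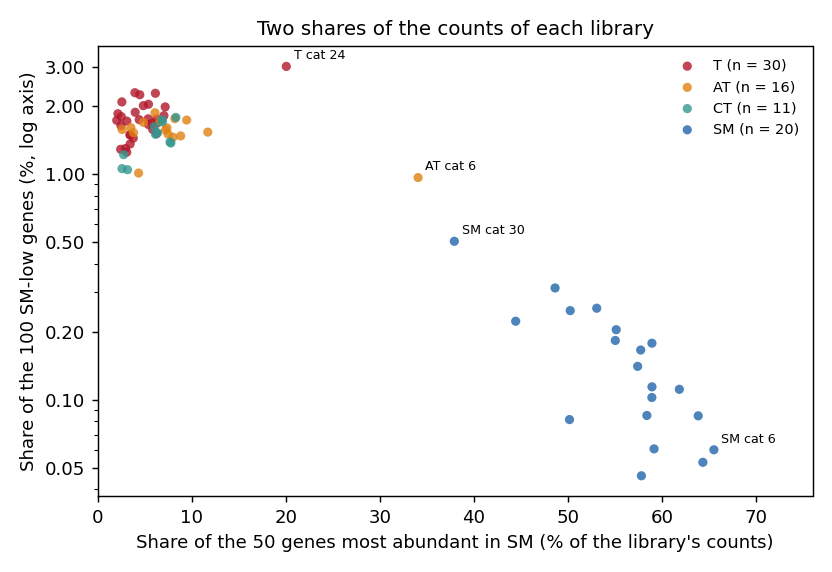
Share of the 100 genes (%, log axis) against the share of the 50 genes most abundant in SM (%), with 1 dot per library colored by tissue. The SM libraries lie at 37.9% to 65.5% on the horizontal axis and at 0.0460% to 0.504% on the vertical axis, and the AT library of cat 6 (34.1%) and the T library of cat 24 (20.04%) lie between them and the other libraries.

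The member with the largest ratio was ENSFCAG00000031982. Its normalized count ranged from 27.2 to 307 in T with a median of 99.6, from 2.63 to 175 in AT around 68.5, and from 6.08 to 357 in CT around 115. In SM it ranged from 0 to 101.5 around 6.80, and 4 of 20 SM libraries had no count. The groups overlapped, since the highest SM library (cat 13) exceeded the T median.

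ENSFCAG00000018554 was the last member in the ranking. Its normalized count was 17.3 to 1156 in T with a median of 115, 10.1 to 224 in AT around 84.4, and 29.8 to 249 in CT around 82.4. In SM it was 0 to 214 around 21.8, and the SM library of cat 11 was its highest. Both ends of the ranking thus held genes whose single SM libraries reached the levels of the other tissues.

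The contrasts between SM and the other tissues were also fitted over all genes with edgeR's quasi-likelihood test, and genes were called where log2(FC) went beyond 1 at a Benjamini-Hochberg adjusted p-value under 0.05. Since the rule used these contrasts, the calls are given as a description. The fits had no term for the cat, so their SEs and p-values leave out the pairing of libraries. Of the members, 99 were called higher in T than SM, where 24.1% of 13771 genes tested were called in that direction. For AT the count was 97 members against 21.1% of 12053 genes, and for CT it was 99 against 23.8% of 12443 genes. All 100 members passed the filter on low counts in each fit, and none was called in the other direction.

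The median log2(FC) of the members was 2.12 for T, 1.98 for AT and 2.11 for CT over SM, beside 0.24, 0.23 and 0.30 for all genes tested. ENSFCAG00000031982 had log2(FC) values of 2.79 ± 0.44 (SE) for T, 2.15 ± 0.57 for AT and 3.09 ± 0.64 for CT over SM. ENSFCAG00000018554 had 2.18 ± 0.46, 1.11 ± 0.46 and 1.23 ± 0.50. Scaling by library totals alone moved the median of all genes to 1.42 for T, 1.36 for AT and 1.504 for CT, and relative to it the members' medians were higher by 1.74, 1.64 and 1.67. With this scaling 91.9% of all calls for T against SM were higher in T, against 58.8% with TMM normalization. For AT the split moved from 60.5% to 93.0% and for CT from 60.8% to 93.0%.

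Few members had SM libraries that were separated fully from another tissue. Every SM library lay below every T library in 5 members, where 0.256% of 19524 genes did so. The count was 9 members against AT (0.671% of genes) and 12 against CT (0.748%). In 2 members every SM library lay below all T, AT and CT libraries, and these were the only such genes of 19524 (0.0102%). The rule chose members on the same contrast, so the shares are given without a reading.

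These 2 members stood at places 19 and 41 of the ranking and were among the abundant ones. The first had 274 to 1339 normalized counts in SM with a median of 777, and 1540 to 9109 in the other libraries. The second had 275 to 1084 in SM around 499, and 1088 to 6999 elsewhere. At the other end, 58 members had at least 1 SM library at or above their smallest T, AT or CT median. In the SM library of cat 30 this held for 20 members.

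Within single cats, the members were lower in SM than in the matched tissue of the same animal in most cases. Over the 20 cats with both T and SM, between 78 and 100 members were lower in SM, with a median of 94. The count was 84 to 100 in the 10 cats with AT and 89 to 100 in the 8 cats with CT. In every one of the matched cats, 32 members were lower in SM than T, 63 lower than AT and 78 lower than CT. The fewest cats in which a member was lower than T was 15 of 20.

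The size of the difference within a cat varied. The median difference over the members, on the scale of log2(normalized count + 1), ranged from 1.06 in cat 30 to 4.27 in cat 18 for T minus SM. For AT it ranged from 1.27 to 3.56 and for CT from 1.12 to 3.08. The genes past the limits had within-cat medians of 0.05 to 0.24 for T, -0.10 to 0.06 for AT and 0.01 to 0.14 for CT. The same SM and matched values entered the choice of the members, so these counts and differences are descriptions.

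**Figure D4:**
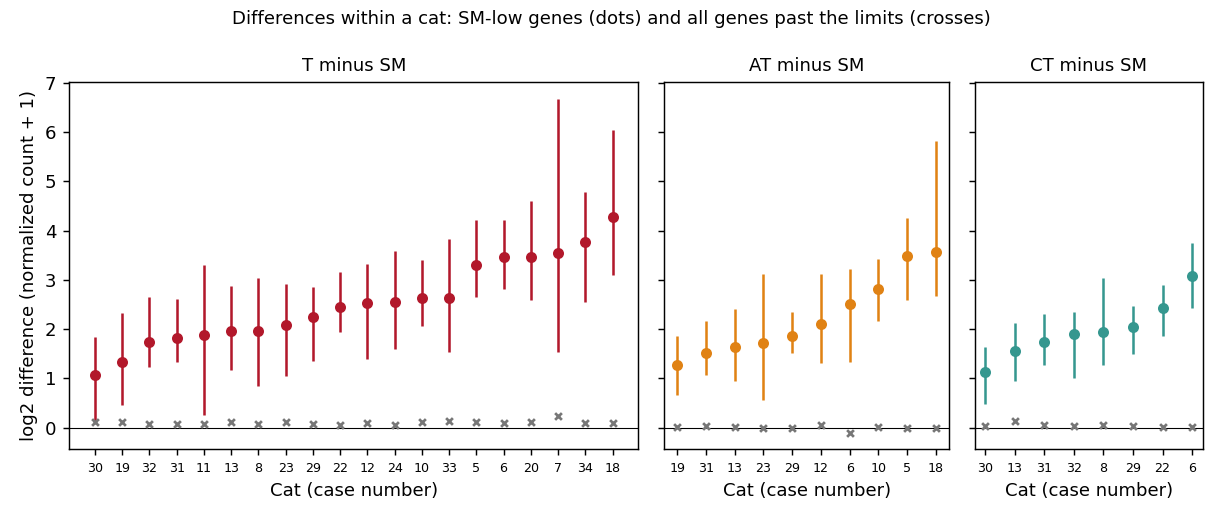
Difference in log2(normalized count + 1) between T, AT or CT and the SM library of the same cat, with 1 position per cat in order of the difference. Dots are the medians over the 100 genes, bars span their interquartile range, and crosses are the medians of all 5894 genes past the limits, which lie near 0 while the dots range from 1.06 to 4.27.

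Among SM libraries the members varied more than in the other tissues. Across SM libraries, the SD of log2(normalized count + 1) had a median over members of 1.73, against 0.86 in T, 0.77 in AT and 0.80 in CT. The 5794 other genes past the limits had 0.60 in SM, 0.59 in T, 0.58 in AT and 0.58 in CT. Members are at low counts in SM, and the part of low counts in this spread was not tested. In the 39 members under 100, the median SD was 1.85 in SM, 0.92 in T, 1.07 in AT and 1.07 in CT. In the 49 members from 100 to under 1000, it was 1.64 in SM, 0.87 in T, 0.74 in AT and 0.75 in CT. In the 12 abundant members, which had counts in every SM library, the median SD was 0.73 in SM, 0.73 in T, 0.45 in AT and 0.61 in CT. For these 12 members the spread in SM was thus no larger than in T.

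The same SM libraries were high or low for many members. The SM library of cat 30 was among the 5 highest of 20 in 88 members and among the 5 lowest in none. The libraries of cats 19 and 31 were among the 5 highest in 56 and 50 members. At the lower end, the library of cat 18 was among the 5 lowest in 71 members, that of cat 5 in 58 and that of cat 7 in 54. In the library of cat 11, 47 members were among the 5 highest and 29 among the 5 lowest, at 1098607 counts.

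This order was also seen in correlations between members. Over the 20 SM libraries, Pearson's r of log2(normalized count + 1) had a median of 0.36 over all pairs of members, and 89.6% of pairs were positive. The other genes past the limits had a median r of 0.01 with 50.8% positive. In T, AT and CT the members' median r was 0.05, 0.07 and 0.01, beside -0.001, -0.0003 and 0.003 for the other genes. The median over all pairs was thus raised most in SM, and by far less in T and AT. In CT, 19.9% of pairs of members had r over 0.5, against 13.6% of pairs of the other genes. In SM these shares were 28.6% and 6.86%. The pairs share libraries and size factors, and genes are not independent replicates, so no p-value is given.

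The co-variation was not particular to the cut at 100 members. The next 100 genes in the ranking had a median r of 0.35 among themselves and 0.36 with the members. The 100 genes past the limits with the smallest ratio, which were highest in SM, had a median r of 0.57 among themselves, 0.65 with TMM factors and 0.18 with library totals alone. Their median r with the members was -0.33, and 11.7% of these pairs were positive. Libraries in which the members were high thus tended to be low for these genes, and the median r stayed negative with TMM factors (-0.26) and with library totals alone (-0.20).

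The value of r in SM was 0.44 without the libraries of cats 7 and 11, 0.42 without cats 11 to 17, 0.31 without cat 30 and 0.34 without cats 7, 11, 18 and 30. With TMM factors it was 0.36 for the members and 0.10 for the other genes, and with library totals alone 0.47 and 0.19. For the 12 abundant members alone, the median r was 0.76 in SM and all pairs were positive. It was 0.81 in CT, again with all pairs positive, 0.34 in AT and 0.27 in T. The median r of the abundant members was thus above that of all members in T, AT and CT too. It was not compared with other genes of like level. Within CT, all 12 had lower levels in cats 11 to 17 than in the other cats, with log2(FC) from -1.53 to -0.55 in edgeR. By median, the CT libraries of this set also held fewer counts. The part of this set of cats, or of depth, in the r in CT was not tested.

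**Figure D5:**
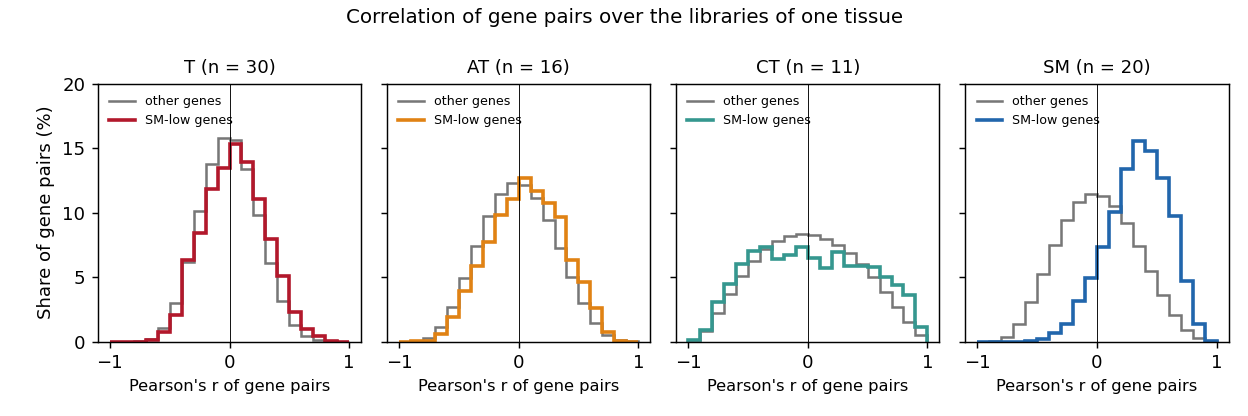
Distribution of Pearson's r over all gene pairs across the libraries of T, AT, CT and SM (share of pairs in %, bins of 0.1), for the 100 genes (colored) and the other genes past the limits (grey). The colored and grey outlines lie close together in T, AT and CT, and in SM the colored outline is shifted to a median of 0.36 while the grey one stays near 0.

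Between T, AT and CT, members were chosen to have like medians, so few calls were to be had. Higher levels in T than AT were called for 2 members, where 9.08% of 14016 genes tested were called in this direction, and none was higher in AT (10.2% of genes). The last member of the ranking, ENSFCAG00000018554, was one of them with a log2(FC) of 1.07 ± 0.43 (SE) and a Benjamini-Hochberg adjusted p-value of 0.0459 in edgeR. Higher levels in T than CT were called for 10 members (9.06% of 14974 genes), and none was higher in CT (6.52%). Between AT and CT, 2 members were called higher in CT (2.87% of 12491 genes) and none higher in AT (4.32%). These fits, too, had no term for the cat.

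The 10 calls between T and CT depended on the settings of the fit, and 1 to 5 members were called under 8 of 9 alternatives. In T against CT, 58.1% of all calls were higher in T in the main edgeR fit with TMM normalization. The share was 38.0% with library totals alone and 42.9% with DESeq2, which differs in more than its size factors. It was also 40.9% with no filter on low counts, 41.3% with all 4 tissues in one fit and 45.1% with a filter on 10 counts. The other alternatives gave 47.8% to 59.0%. With the cat as a replicate block, 5 members were called between T and CT, where 1882 of 14974 genes were. None of 100 was called between AT and CT, where 326 of 12491 genes were. In the latter fit 9 members had an unadjusted p-value under 0.05 in edgeR, where 1788 of 12491 genes did. DESeq2 without the block called 3 members, where it called 1007 of 12491 genes. The rule limited these differences, and nothing is read from the low counts.

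The libraries of cats 11 to 17 differed from those of the other cats in earlier results on these data, and the members were compared between both sets within SM, CT and AT. No such fit was made within T, which enters through the difference from SM. This contrast was not part of the rule. In SM the members' median level was 63.4 in cat 11, 32.96 in cat 12 and 56.5 in cat 13, and 7.43 to 100 in the other 17 cats. The sets overlapped fully. Of the members, 3 were called higher in cats 11 to 13 and none lower, with edgeR at a Benjamini-Hochberg adjusted p-value under 0.05, where 12.1% of 15054 genes were called higher and 1.01% lower.

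ENSFCAG00000031982 had 86.8, 29.5 and 101.5 normalized counts in the SM libraries of cats 11, 12 and 13, and 0 to 27.2 with a median of 4.89 in the other 17. All 3 libraries were above all others, with a log2(FC) of 2.91 ± 0.94 (SE) and an adjusted p-value of 0.0399 in edgeR. Outside SM its median in cats 11 to 17 against the other cats was 140 against 86.3 in T, where no fit was made, and 353 against 70.1 in CT. In AT it was 68.8 against 68.2. ENSFCAG00000003035, at place 59 of the ranking, had 287, 17.3 and 84.3 in these libraries and 0 to 48.1 around 10.99 in the others, so that cat 12 lay within their range. Its log2(FC) was 2.88 ± 0.88 and its adjusted p-value 0.0274 in edgeR. Its median in cats 11 to 17 against the other cats was 77.5 against 42.7 in T, 133 against 33.9 in AT and 165 against 80.9 in CT. Neither gene was called between the sets within AT or CT.

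Both calls within SM were lost without the SM library of cat 11, which had 1098607 counts, and no member was called then. The log2(FC) of ENSFCAG00000031982 was 2.84 without this library and that of ENSFCAG00000003035 was 1.70. The call of ENSFCAG00000031982 was also lost without cat 13, at a log2(FC) of 2.54. Over all genes, 923 were called without the library of cat 11, 1912 without that of cat 13 and 1977 with both. The part of sequencing depth in the calls was not tested.

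In CT the members' median level was 184 in cat 13, 162 in cat 14 and 159 in cat 17, and 158 to 219 in the other 8 cats. Lower levels in cats 13, 14 and 17 were called by edgeR for 29 members (7.94% of 16501 genes), and a higher level for 1 member (20.3% of genes). The called log2(FC) values ran from -3.81 to 1.68, and 71 members had a negative value. The median log2(FC) was -0.64 over the members and 0.34 over all genes tested. With library totals alone these medians were -0.18 and 0.83. With this scaling 18 members were called lower, where 410 of 16501 genes were, and 9 higher, where 4450 of 16501 genes were.

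The CT libraries of cats 13, 14 and 17 held 847003, 2113445 and 1351243 counts, and 7 of the other 8 held at least 3045884. Depth thus went largely with the set of cats, and the part of either was not tested. Without libraries under 2000000 counts only the library of cat 14 was left in the set, no member was called, and 27 had an unadjusted p-value under 0.05 in edgeR, where 2785 of 16599 genes did. This fit assumes that the single library varied like the others. The CT libraries of both sets of cats entered the CT medians used by the rule, and the part of the choice of members in these calls was not tested.

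In AT the members' median level was 129, 158, 160, 165 and 184 in cats 12, 13, 15, 16 and 17 and 104 to 190 in the other 11 cats. No member was called by edgeR or by DESeq2, where edgeR called 0.247% of 12960 genes. In edgeR 3 members had an unadjusted p-value under 0.05, where 1674 of 12960 genes did. The difference of T minus SM was then compared between cats 11 to 17 and the other cats by an interaction term. No member was called by edgeR or by DESeq2, where edgeR called 1.11% of 18427 genes. In edgeR 8 members had an unadjusted p-value under 0.05, where 2436 of 18427 genes did. The set held 3 SM libraries, so the interaction rested on few cats.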

How the data were processed

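The deposited files hold, for each of 77 libraries, the raw count of every Ensembl gene identifier as the authors obtained it, with no normalization. Per the study's methods, reads of a stranded total RNA kit were trimmed with Trimmomatic and assigned with Kallisto to the cat genome annotation, whereas the submitters' processing notes name STAR and featureCounts. Which of these made the counts is not settled, and reads shared by near-identical genes may be split differently by each.

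Groups follow the sample titles. Size factors were medians of ratios over 6527 genes nonzero in every library, and descriptive values are counts divided by them. Tests were made on the counts as deposited with edgeR 4.0.16 (limma 3.58.1, R 4.3.3), with TMM normalization, filterByExpr and Benjamini-Hochberg adjustment over all genes tested. SEs were derived from the F statistic. DESeq2 1.42.0 was an alternative. Python 3.11.15 (pandas 2.3.3, numpy 2.4.6, matplotlib 3.10.9) served for tables and plots. Alternatives were library totals alone, no filter, a filter on 10 counts (in at least 50% of the libraries of either tissue), all 4 tissues in one fit, the cat as a block, and libraries left out. The fits were first run on simulated counts of independent libraries, with known changes and the same dispersion for all genes. The simulation held no effect of the cat and did not model the share of muscle transcripts, so it does not check the fits for either. With totals of 847003 to 19099337 counts, a value of 0 in the shallowest libraries does not show absence. No libraries were identical.

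The members, comparisons and lists were chosen with earlier results of these data known. The 3 named identifiers are the first and the last member of the ranking and, of those called higher in cats 11 to 17 within SM, the 2 with the largest log2(FC), and the first member is one of the latter. Gene lists and markers could not be tested, since 0 of 19587 identifiers matched the reference table of 39307 genes.

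Same-numbered libraries are from one animal by their titles, which pairs them. Deviations from the tissue means correlated between libraries of one cat with medians of 0.11 for T and AT (16 pairs), 0.12 for T and CT (11) and 0.11 for T and SM (20), and of 0.23, 0.18 and 0.10 for AT and CT (5), AT and SM (10) and CT and SM (8). Between different cats all 6 medians were within 0.01 of 0. A split of SM and T libraries by the tumor's body site, which the study gives but the labels do not, was tried after values had been seen and is not reported because the labels carry no site.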

Additional observations from a re-analysis of the deposited data

How the results depend on the processing

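Of the 100 members, 54 were selected again with a minimum median of 20, 61 with a minimum of 100, 45 with T, AT and CT within 1.5-fold, 63 with means of log2 values and 63 without cats 11 to 17. The other alternatives of the rule kept 68 to 92. Leaving out each SM library in turn kept 87 to 95. This alternative was chosen after seeing the data, as were those without the SM libraries of cats 7, 11 and 18, the SM library of cat 30, the AT library of cat 6 or the T library of cat 24. Members called against SM numbered 91 to 100 in all alternatives. The rule chose them on this contrast, so nothing is read from these counts. The cat as a replicate block called 100, 92 and 95 for T, AT and CT. With it 6113 of 13771, 4067 of 12053 and 4208 of 12443 genes were called in all. Over all genes, library totals alone raised the calls for T against SM from 5649 to 9250 of 13771. For AT they rose from 4215 to 8106 of 12053, and for CT from 4865 to 8636 of 12443.

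For T against AT, 2 members were called, and 4 with the filter on 10 counts, 4 with all 4 tissues in one fit, 7 without libraries under 2000000 counts and 4 without the AT library of cat 6. Over all genes, 2708 of 14016 were called in the main fit. In these alternatives it was, in the same order, 2704 of 13342, 2728 of 16618, 3201 of 14079 and 2695 of 14250. For T against CT, 10 members were called, and 3 with DESeq2, 1 with library totals alone, 2 with no filter, 3 with the filter on 10 counts, 5 with the replicate block, 2 with all 4 tissues in one fit, 5 without cats 11 to 17 and 4 without libraries under 2000000 counts. Over all genes, 2332 of 14974 were called in the main fit. These alternatives called 1882 (replicate block) to 2724 (without cats 11 to 17) of 13472 to 19505 genes tested. For AT against CT, 2 were called, and 0 with the block, 0 with all 4 tissues and 6 without cats 11 to 17. Over all genes, 898 of 12491 were called between AT and CT, and 326 of 12491 with the block. It was 762 of 16618 with all 4 tissues and 1014 of 11858 without cats 11 to 17. The block changed no other call of a count here beyond 1.5 times, save for the interaction over all genes.

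For cats 11 to 17 within SM, 0 members were called in place of 3 without libraries under 2000000 counts, and 0 to 4 when single libraries were left out. All genes called numbered 1977, and 1298 with DESeq2, 4694 with no filter, 961 without shallow libraries and 923 to 2740 when single libraries were left out. Within CT, 0 of 30 members remained called without shallow libraries, and 17 to 23 were called when single libraries were left out. Over all genes 4655 were called, 14 without shallow libraries and 3018 to 3788 when single libraries were left out. Within AT, 32 genes were called, and 222 with DESeq2, 191 with library totals alone, 3396 with no filter, 0 without shallow libraries (268 at an unadjusted p-value under 0.05 in edgeR) and 7 to 324 when single libraries were left out. For the interaction, 205 genes were called, and 5 without shallow libraries, 48 with the replicate block and 311 with DESeq2. The cause of these changes was not tested.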
